A study of Mus musculus with 29 samples.

Results

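Cortical tissue of stroked Rag2-/- mice was compared directly with cortical tissue of stroked WT mice, both 21 days after injury (21 dpi), to ask which transcripts differ between stroked cortex that can and cannot receive mature B and T cells. The comparison rests on 7 of the 29 samples of the series, chosen by their labels alone, with 3 stroked Rag2-/- mice and 4 stroked WT mice. Mice of both groups had a C57BL/6 background, were 3 months of age and were of either sex. Each received a photothrombotic stroke, in which light activates an injected dye and clots the vessels of the right sensorimotor cortex. Neither group was treated with tacrolimus. Stroked NSG mice, set beside them for V segment reads only, have a NOD background and lack mature B and T cells and natural killer cells. The Rag2-/- mice lack recombination activating gene 2 in every cell from birth. They were bred in-house and WT mice came from a commercial breeder, so genotype and origin cannot be told apart. By the prefixes of their sample titles, all 3 Rag2-/- mice and WT mice 1 and 2 belong to the Imm2 cohort, and WT mice 3 and 4 to the TF cohort. Non-stroked samples of 3 Rag2-/- and 4 WT mice, all Imm2, served as the background level. The study's methods describe this RNA as taken from the side opposite the stroke and its results as taken from naive mice, so which of these the non-stroked samples are is not known. Total counts were 32507506 to 36182746 per stroked Rag2-/- sample and 21309103 to 39695671 per stroked WT sample. No samples held identical counts. The spread behind the p-values was estimated over all 8 groups of the 29 samples, NSG mice and tacrolimus-treated WT mice among them. Part of it may be technical.

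Rag2 and Rag1 together form the enzyme that cuts DNA between the V, D and J segments of antigen receptor genes in developing lymphocytes. Without either protein, precursors cannot assemble an immunoglobulin or T cell receptor chain, and mature B and T cells are not made, whereas natural killer (NK) cells, monocytes and microglia develop without V(D)J recombination. T cells carry their receptor in a complex with the CD3 chains, and plasma cells are the B lineage cells that secrete antibody. After a stroke, T cells and antibody-secreting cells are known to enter the injured brain over weeks.

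The libraries were first examined for genes of neighbouring tissue, because their summed levels differed between single mice. Rag2-/- mouse 1 had a summed level of 2840 CPM (read counts scaled to a common library size) over 16 choroid plexus genes, against 226 and 258 in the other Rag2-/- mice and 219, 256, 489 and 640 in WT mice 1 to 4. Its level of Ttr, the transthyretin gene that marks choroid plexus epithelium, was 1400 CPM, against 1.52 and 2.57 CPM in the other Rag2-/- mice. Over 12 genes of the olfactory bulb, a list written after the values were seen, WT mice 4 and 1 stood highest with 458 and 212 CPM, WT mice 2 and 3 had 127 and 135 CPM, and the Rag2-/- mice had 102, 112 and 98.1 CPM. Of these 12 genes, 11 were lower in Rag2-/- mice at an unadjusted p below 0.05, against 4.08% of all genes, and the list median log2 fold change was -2.43. Because the list was chosen with these values known, the count describes it and is no test. The list holds Tbx21 and Eomes, which lymphocytes also express, and whether these libraries hold olfactory bulb tissue was not tested. Summed reads of 4 Y-linked genes were 0 CPM in Rag2-/- mouse 1 and WT mice 3 and 4, and 122 to 152 CPM in the other 4 mice. For several genes that were highest in these libraries, values without them, or with the olfactory bulb level as a covariate, are given too. Because this level did not overlap between the groups, the covariate can also take up part of any difference between them.

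**Figure D1:**
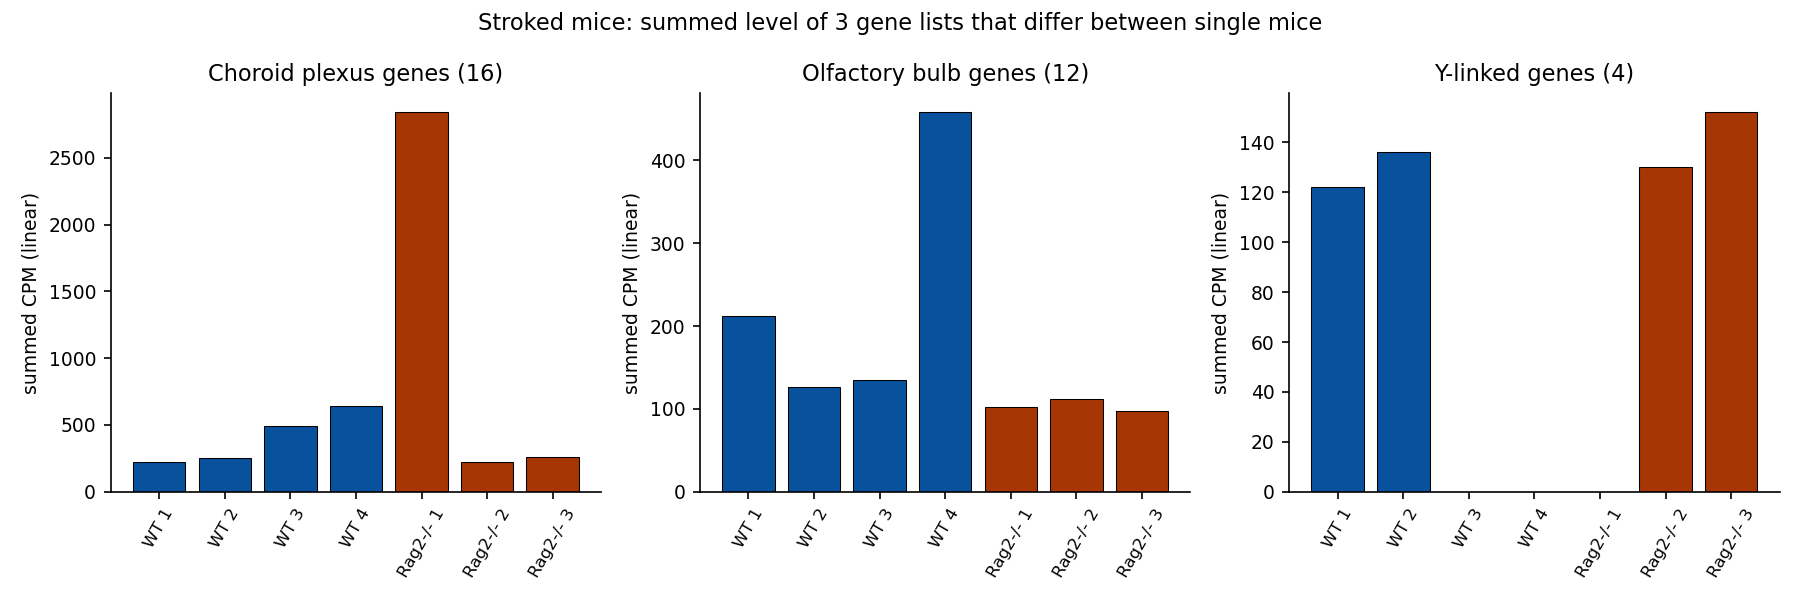
Bars show the summed CPM (linear axis) of 16 choroid plexus, 12 olfactory bulb and 4 Y-linked genes in each of the 7 stroked mice, WT in blue and Rag2-/- in brown. Rag2-/- mouse 1 reached 2840 CPM of choroid plexus genes, WT mouse 4 reached 458 CPM of olfactory bulb genes, and 3 mice had no Y-linked reads.

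The locus itself gave the check of the labels. Rag2 (chr2:101624718-101632529, plus strand, GRCm38) had 0 counts in 6 of the 7 stroked mice and 2 counts in WT mouse 4, which is too few for a test. B230118H07Rik (chr2:101560781-101649532), a protein-coding gene on the minus strand whose span contains Rag2, had 0.0574, 0.0554 and 0.123 CPM in Rag2-/- mice 1 to 3 and 15.8, 16.2, 16.3 and 14.0 CPM in WT mice 1 to 4. The groups lay far apart, and all 7 mice matched their genotype labels. The gene was lower in Rag2-/- mice with a log2 fold change of -7.59 (SE 0.312) and an adjusted p of 7.04e-15 by edgeR's quasi-likelihood test. Whether reads were assigned by strand is not given in the sources used here, so reads of B230118H07Rik and Rag2 may not be separable.

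The other genes of the locus did not separate the groups. Rag1, the partner of Rag2, was read at 0.172, 0.249 and 0.337 CPM in Rag2-/- mice and 0.202, 0.278, 0.217 and 0.336 CPM in WT mice (log2 fold change -0.04, SE 0.398). Traf6, an adaptor of Toll-like receptor signalling, differed by a log2 fold change of 0.02 (95% interval -0.17 to 0.21), and Prr5l, a partner of the mTOR complexes, by 0.09 (-0.28 to 0.46). A difference of Rag1 as large as 0.86 on the log2 scale in the lower direction or 0.78 in the higher direction lies within its interval, since it had only 5 to 11 counts per mouse.

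Across the transcriptome, B230118H07Rik was the only gene that passed. Of 17031 genes tested, 1 met the call rule (adjusted p below 0.05 together with more than 1 on the log2 scale in either direction), or 0.00587%, and it was lower in Rag2-/- mice. No gene was called as higher by edgeR, where 501 genes (2.94%) were higher and 695 (4.08%) lower at an unadjusted p below 0.05, together 1196 (7.02%) against 852 expected by chance. In 2.78% of genes every Rag2-/- mouse was above every WT mouse, and in 3.19% below, together 5.97%. DESeq2 called 2 genes, both lower, B230118H07Rik and Igha. The next smallest adjusted p of edgeR's test was 0.276, shared by Igha and Ly6c2. The median log2 fold change over all genes was 0.0 with quartiles of -0.13 and 0.13, and the median gene had a 95% interval of 0.316 on the log2 scale to either side.

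The count at unadjusted p depended on single WT mice. It was 385 without WT mouse 4 and 647 without WT mouse 3, and 2151 and 2163 without WT mice 1 and 2, where WT is represented mostly by the TF cohort. Within Imm2, 3 Rag2-/- against 2 WT mice gave 415 genes, and the cohort as a covariate gave 424. A fit of only the 7 samples, whose spread comes from them alone, gave 765 of 16201 genes. The unadjusted p of Cd3e by edgeR's test was 0.00186 in that fit and 8.98e-05 in the main fit. The call of B230118H07Rik was made in each of these fits. Apart from this gene, the values below describe genes that did not pass over all genes, ordered by role, and no change of any of them is claimed. Genes entered the tests through a filter on low counts over all 8 groups. A gene with few or no counts in Rag2-/- mice was thus tested only where other groups had more. List counts below therefore describe the lists and are no tests.

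**Figure D2:**
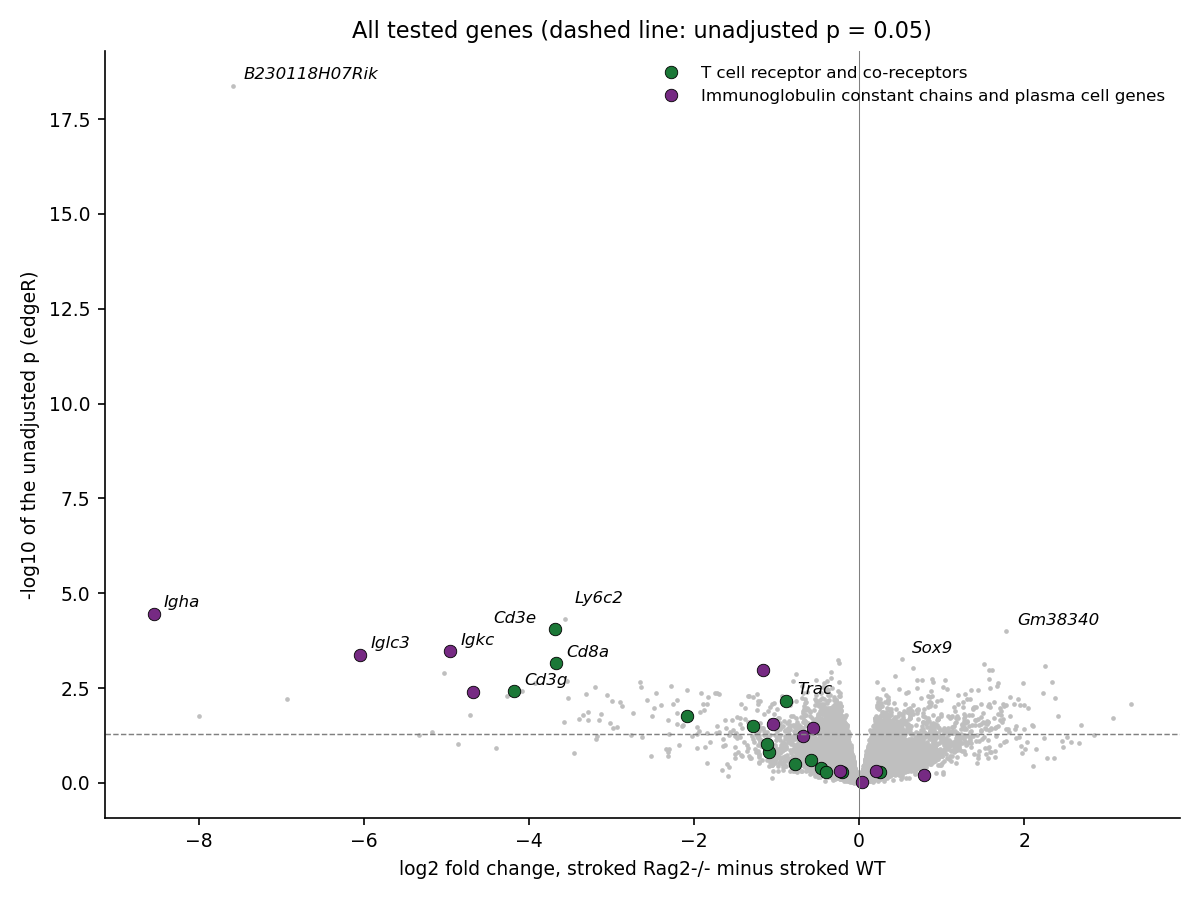
Each point is 1 of 17031 genes tested, with the log2 fold change of stroked Rag2-/- minus stroked WT mice on the x axis and -log10 of edgeR's unadjusted p on the y axis (dashed line at 0.05). B230118H07Rik stands alone at the top, and genes of the T cell receptor list (green) and of the immunoglobulin and plasma cell list (purple) make up most of the labelled points to the left.

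The gene with the next lowest p was Igha, the constant chain of IgA (chr12:113254830-113260236), which had 0 counts in all 3 Rag2-/- mice and 27, 95, 12 and 59 counts in WT mice 1 to 4, or 0.682, 2.64, 0.522 and 1.8 CPM. Every WT mouse was thus above every Rag2-/- mouse. Over the pooled libraries the level in Rag2-/- mice was at least 50.7-fold lower, against a floor of 3 counts over the group, with an adjusted p of 0.276 by edgeR and 0.000351 by DESeq2.

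The kappa light chain gene Igkc (chr6:70726435-70726966) had 2, 1 and 3 counts in Rag2-/- mice and 38, 158, 24 and 41 counts in WT mice. WT mouse 2 was highest for Igkc as it was for Igha. The ratio of pooled levels, Rag2-/- to WT, was 0.0292 with a 95% counting interval of 0.0106 to 0.0643, and the adjusted p was 0.707 by edgeR's test. Such counting intervals cover counting error only and not the spread between mice.

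The lambda constant genes had the same shape at lower counts. Iglc3 had 0 counts in each Rag2-/- mouse and 12, 12, 1 and 9 in WT mice, at least 8.94-fold lower over the pooled libraries. Iglc1 had 0 counts in each Rag2-/- mouse and 1, 2, 4 and 5 in WT mice, at least 3.15-fold lower. Jchain, which links IgA and IgM into polymers, was read in every mouse, at 0.287, 0.554 and 0.368 CPM in Rag2-/- and 0.783, 1.17, 0.652 and 0.703 CPM in WT mice. Its groups did not overlap, the log2 fold change was -1.04 (SE 0.443) and the adjusted p was 0.707 by edgeR. Lambda constant genes are near-identical copies, so the split of reads between them is uncertain.

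Irf4, a transcription factor that plasma cells and activated T cells require, was measured at 0.201, 0.139 and 0.245 CPM in Rag2-/- mice. WT mice had 0.404, 0.417, 0.391 and 0.550 CPM. The groups did not overlap (log2 fold change -1.17, SE 0.318, adjusted p = 0.707 by edgeR).

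Of 18 genes of immunoglobulin constant chains and plasma cells, 12 passed the filter on low counts. Of these, 7 were lower at unadjusted p below 0.05, against 4.08% of all genes, and the same number did not overlap between the groups on the lower side, against 3.19% of all genes. None was called, and the median log2 fold change was -0.86 against 0.0 over all genes. Members such as Igha and Iglc3, with 0 counts in stroked Rag2-/- mice, passed that filter through other groups. These shares therefore describe the list and are no test. Without the 3 libraries with the highest level of choroid plexus or olfactory bulb genes (Rag2-/- mouse 1, WT mice 1 and 4), 4 of 14 tested members were lower at that threshold. The share of all genes lower in that fit is not the 4.08% of the main fit and is not given here, so this count has no background. In the remaining mice Igha had 0 and 0 against 95 and 12 counts and Igkc 1 and 3 against 158 and 24. Besides the genes above, the list's lower members at that threshold included Derl3, which acts in the disposal of misfolded secretory proteins (log2 fold change -0.56).

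Other antibody genes were read in Rag2-/- mice at levels within or near the WT range. Ighm, the constant chain of IgM, had 1567, 1477 and 1432 counts in Rag2-/- mice and 2203, 1504, 622 and 833 in WT mice. The WT mice of the TF cohort were lowest and the Rag2-/- mice lay inside the WT range (log2 fold change 0.20, 95% interval -0.37 to 0.78). Ighg2c, a constant chain of IgG, had 59, 99 and 141 counts in Rag2-/- and 185, 104, 64 and 108 in WT mice. Reads of a constant chain do not by themselves show that a chain was recombined, which is what the V and J segments bear on.

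Of the V segments, 218 immunoglobulin V genes are in the table, and 48 had a read in at least 1 of the 7 stroked mice. The 7 segments that had 5 or more reads in stroked WT mice and 0 in stroked Rag2-/- mice are shown with Igkv8-19, the segment read most in Rag2-/- mice. Each line gives the last 60 bases of the reference transcript (GENCODE M21, GRCm38, 5′ to 3′), the end that recombination joins to a D or J segment. Capitals mark the codons of a tyrosine, a tyrosine or phenylalanine and the conserved cysteine, after which the joined and most variable stretch of the chain begins.
Ighv8-12: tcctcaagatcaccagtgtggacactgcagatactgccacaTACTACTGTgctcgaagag
Ighv9-4: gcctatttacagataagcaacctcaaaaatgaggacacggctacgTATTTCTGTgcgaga
Ighv1-76: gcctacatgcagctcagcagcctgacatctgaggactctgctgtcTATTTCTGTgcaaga
Igkv1-110: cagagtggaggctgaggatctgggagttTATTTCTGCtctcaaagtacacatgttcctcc
Igkv1-135: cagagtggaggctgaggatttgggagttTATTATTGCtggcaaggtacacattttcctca
Igkv5-48: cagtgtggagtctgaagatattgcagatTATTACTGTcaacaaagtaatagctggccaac
Iglv1: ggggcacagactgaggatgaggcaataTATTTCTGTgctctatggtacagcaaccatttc
Igkv8-19: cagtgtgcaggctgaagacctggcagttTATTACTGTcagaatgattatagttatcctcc

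All 8 transcripts hold these codons in this window, 6 to 24 bases before their end, as do 95.9% of the immunoglobulin V transcripts of the annotation that are in the table, searched on the sense strand in any frame. The 3 heavy chain segments lie on chromosome 12 (Ighv8-12 at chr12:115647945-115648387, Ighv9-4 at chr12:114299961-114300389 and Ighv1-76 at chr12:115847881-115848331, all minus strand). The kappa segments lie on chromosome 6, among them Igkv1-110 at chr6:68270485-68271267 and Igkv1-135 at chr6:67609713-67610508 (plus strand), and Iglv1 lies at chr16:19085017-19085500 (minus strand). Segments of a family resemble each other closely, so the assignment of a read to 1 of them is uncertain, whereas their sum is less affected.

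The most read of these segments came from WT mouse 2. All 11 reads of Ighv8-12, all 8 of Igkv1-135 and all 7 of Ighv9-4 were from WT mouse 2, which also had 9 of the 10 reads of Igkv1-110. Iglv1 was read in 3 WT mice, with 3, 1 and 3 reads in WT mice 2, 3 and 4. Ighv1-76 had 2 reads in WT mouse 1 and 3 in WT mouse 4, and Igkv5-48 had 2 in WT mouse 2 and 3 in WT mouse 3. Of the 47 segments read in stroked WT mice, 39 were read in 1 mouse only.

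Summed over all 218 segments, stroked Rag2-/- mice had 4, 2 and 4 immunoglobulin V reads, or 0.115, 0.0554 and 0.123 CPM. Stroked WT mice 1 to 4 had 14, 52, 14 and 34 reads, or 0.353, 1.44, 0.609 and 1.04 CPM. The groups did not overlap, also within Imm2. The 10 reads of the Rag2-/- mice fell on 3 segments, and 5 of them on Igkv8-19, which had 4 reads in WT mice. Non-stroked Rag2-/- mice had 6, 5 and 5 reads and non-stroked WT mice 13, 10, 4 and 12. Stroked NSG mice, which also lack B and T cells, had 1, 3 and 3 reads.

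The T cell receptor V genes gave a smaller separation over more background. Summed over 144 segments, stroked Rag2-/- mice had 13, 5 and 8 reads, or 0.373, 0.139 and 0.245 CPM. Stroked WT mice had 30, 18, 13 and 18 reads, or 0.757, 0.5, 0.565 and 0.55 CPM, and every WT mouse was above every Rag2-/- mouse on the CPM scale. Stroked NSG mice, which also lack T cells, had 22, 17 and 18 reads, or 0.557, 0.42 and 0.551 CPM, overlapping the stroked WT mice. T cell receptor V reads thus did not set WT mice apart from both strains without mature B and T cells, and non-stroked Rag2-/- mice had 15, 8 and 11 of them.

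The sums of constant segments overlapped between the groups, and most of their reads were those of Ighm and Trbc2, so they do not show the other constant genes. Immunoglobulin C segments summed to 46.9, 44.1 and 49.2 CPM in stroked Rag2-/- mice and to 62.7, 52.8, 32.1 and 32.7 CPM in stroked WT mice. T cell receptor C segments summed to 7.26, 8.87 and 9.35 CPM and to 10.5, 9.84, 5.56 and 6.84 CPM. In both classes the Rag2-/- mice lay inside the WT range. The J segments overlapped between the groups too. Immunoglobulin J segments summed to 0.373, 0.0554 and 0.0919 CPM in stroked Rag2-/- mice and to 0.151, 0.167, 0.261 and 0.397 CPM in stroked WT mice. For T cell receptor J segments the sums were 0.488, 0.693 and 1.2 CPM and 0.707, 0.417, 1.0 and 0.641 CPM.

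**Figure D3:**
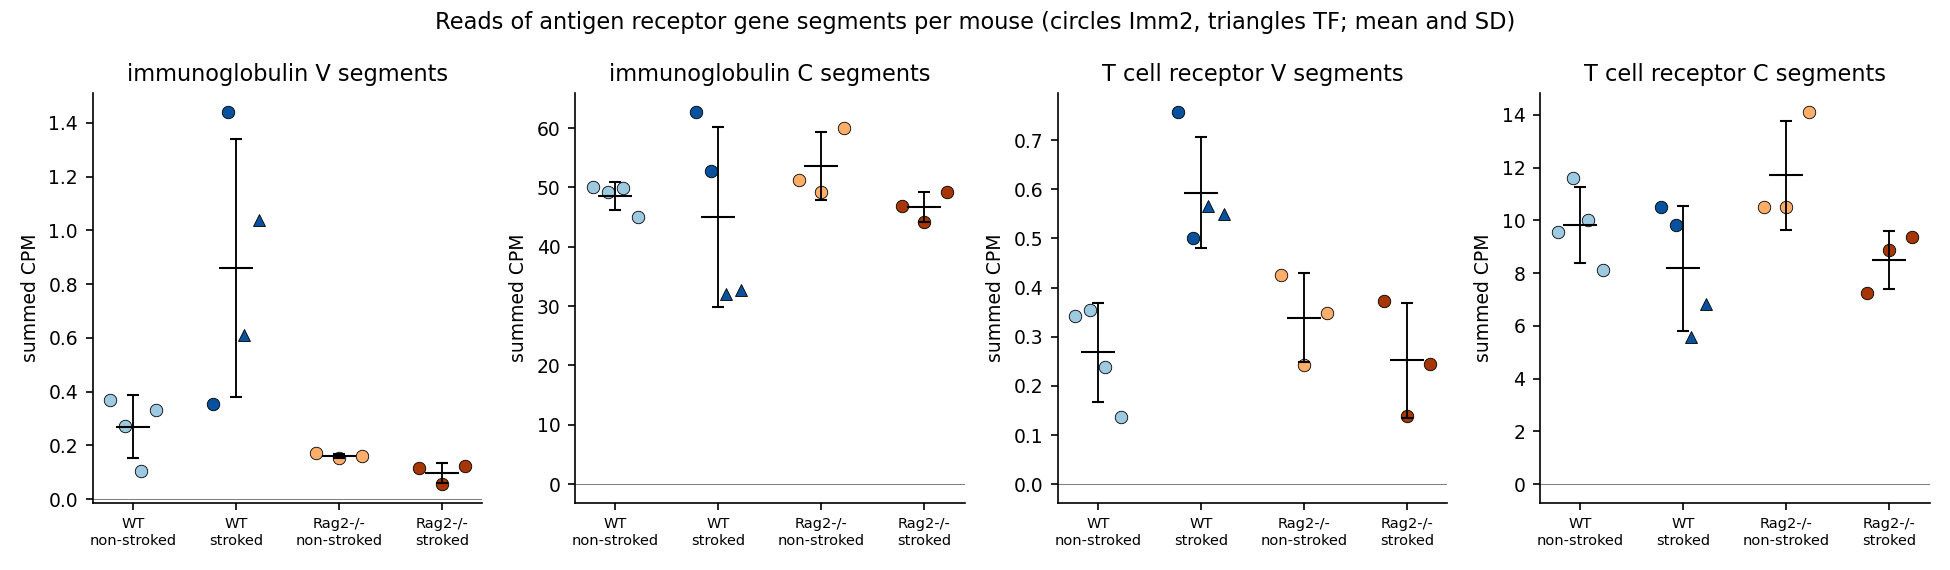
Points are the summed CPM of all annotated immunoglobulin or T cell receptor V and C segments in each mouse (circles Imm2, triangles TF), with the group mean and SD. Stroked WT mice lie above stroked Rag2-/- mice for the V segments of both receptors, and for the C segments the Rag2-/- mice lie inside the WT range.

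T cell genes were also among those with low p-values. Cd3e, a signalling chain of the T cell receptor complex (chr9:44998740-45009627), had 0, 2 and 1 counts in Rag2-/- mice and 28, 5, 11 and 11 counts in WT mice, or 0.707, 0.139, 0.478 and 0.336 CPM. The groups did not overlap and WT mouse 1 was highest. The ratio of pooled levels was 0.0692 with a counting interval of 0.0138 to 0.213. The log2 fold change was -3.68 (SE 0.773, adjusted p = 0.345 by edgeR's test).

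The other CD3 chains showed the same order. Cd3g had 0, 1 and 0 counts against 18, 5, 1 and 9 (log2 fold change -4.18, SE 1.27, adjusted p = 0.707 by edgeR). Cd3d, which did not pass the filter on low counts, had 0 counts in each Rag2-/- mouse and 4, 3, 4 and 10 counts in WT mice, at least 5.52-fold lower over the pooled libraries. An exact two-sided permutation test of its CPM gave p = 0.0571, which is the smallest value that 3 against 4 mice allow (adjusted p = 0.114 over the 6 members of this list that did not pass the filter). Cd247, the zeta chain, which NK cells also carry, had 3, 8 and 6 counts against 8, 12, 5 and 5, and the groups overlapped.

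Co-receptors of cytotoxic T cells were next. Cd8a had 1, 2 and 0 counts in Rag2-/- mice and 32, 16, 1 and 9 in WT mice. WT mouse 3 with 1 count lay inside the Rag2-/- range, and the other WT mice lay above it. The log2 fold change was -3.67 (SE 0.918, adjusted p = 0.707 by edgeR). Cd8b1, the partner chain, had 2, 0 and 0 counts against 6, 10, 4 and 4, an exact permutation p of 0.0571 that is again the smallest possible.

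Cd4, the co-receptor of helper T cells, was read far more than any CD3 chain. It had 16.9, 8.23 and 1.5 CPM in Rag2-/- mice and 13.3, 6.33, 20.6 and 21.0 CPM in WT mice, with a log2 fold change of -0.78 (95% interval -2.36 to 0.80). Penk, an enkephalin gene of the striatum, was ordered in a similar way over these mice, with 234, 121 and 51.5 CPM in Rag2-/- and 177, 112, 274 and 269 CPM in WT mice. The part of striatal RNA in the Cd4 values was not tested.

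Receptor chains proper differed by chain. Trac, the constant region of the alpha chain, had 24, 16 and 13 counts in Rag2-/- mice and 37, 45, 19 and 24 in WT mice, or 0.688, 0.443 and 0.398 CPM against 0.934, 1.25, 0.826 and 0.733 CPM (log2 fold change -0.88, SE 0.297, adjusted p = 0.707 by edgeR). Trbc1, of the beta chain, had 2, 1 and 1 counts against 8, 2, 4 and 9. Trbc2, its near-identical copy, had 218, 297 and 284 counts against 332, 286, 98 and 170 and did not separate the groups (log2 fold change 0.25, SE 0.389). The gamma chain genes Tcrg-C1 and Tcrg-C2 had 0 counts in each Rag2-/- mouse, and 3, 0, 4 and 5 and 17, 6, 0 and 4 counts in WT mice, respectively. In each of these genes 1 WT mouse was also at 0. Icos, a costimulatory receptor of activated T cells, had 5, 1 and 3 counts against 7, 12, 4 and 6 (log2 fold change -1.29, SE 0.57).

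Of 20 T cell receptor and co-receptor genes, 14 passed the filter on low counts and 6 of them were lower at unadjusted p below 0.05, against 4.08% of all genes. None was higher at that threshold and none was called. For 4 of the 14 the groups did not overlap, with Rag2-/- mice lower, against 3.19% of all genes, and the median log2 fold change was -0.98. Cd3e, Cd3g and Cd8a, with few or no counts in stroked Rag2-/- mice, passed the filter through other groups, so these counts are no test. Without the 3 libraries named above, 7 of 17 tested members were lower at that threshold. A fit of only the 7 samples tested 8 members, of which 3 were lower, where 426 of all 16201 genes were lower. The share of all genes lower at that threshold differed between these fits, so 4.08% is not the background of each. For the fit without the 3 libraries that share is not given here, so its count has no background. Within the Imm2 cohort Cd3e, Cd3g and Cd8a had log2 fold changes of -3.71, -4.52 and -4.27. Without the 3 libraries these were -2.64, -2.48 and -3.04, of which Cd3g had an unadjusted p of 0.167 by edgeR. Fewer T cells and less RNA of these genes per cell cannot be told apart in bulk tissue.

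**Figure D4:**
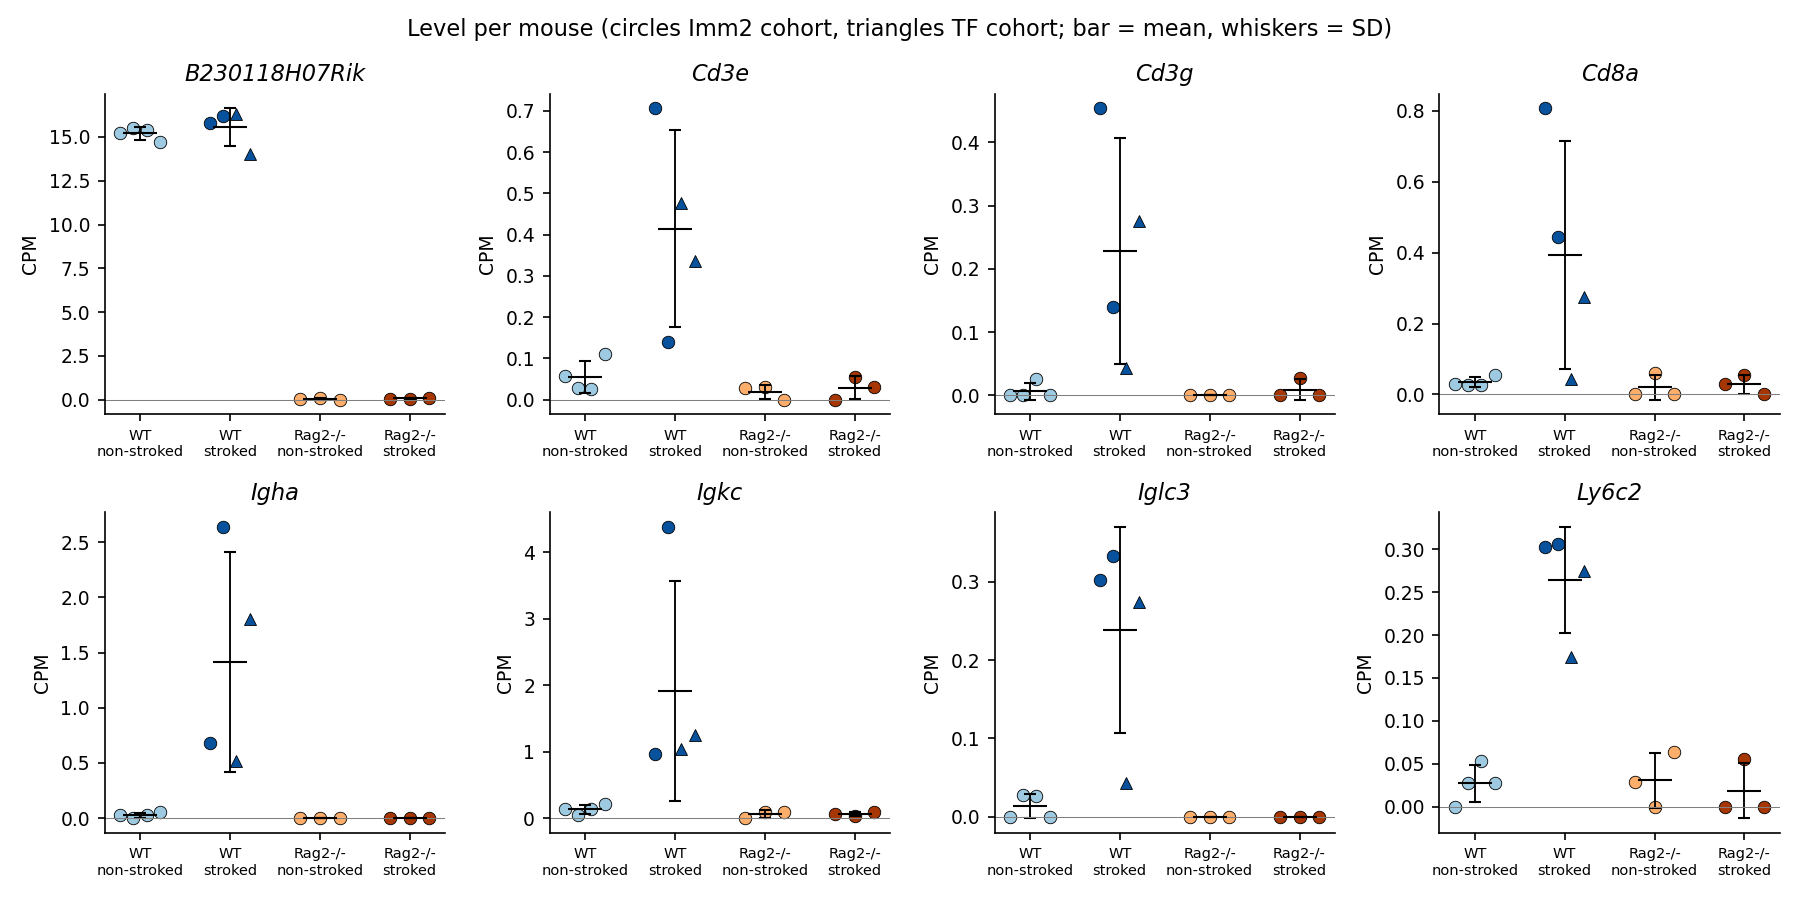
Points show the level in CPM (linear axes) of 8 genes in each mouse of 4 groups, with circles for Imm2, triangles for TF, a bar for the mean and whiskers for the SD. B230118H07Rik is near 0 in Rag2-/- mice with and without stroke, and the lymphocyte genes and Ly6c2 are highest in stroked WT mice, where they spread widely.

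The level at rest showed where these genes stood without stroke. The non-stroked groups also differed in tissue and sex genes, and these differences enter the contrasts below. Choroid plexus genes summed to 266, 293, 1480 and 962 CPM in non-stroked WT mice and to 250, 271 and 244 CPM in non-stroked Rag2-/- mice. The 4 Y-linked genes summed to 152, 141, 129 and 151 CPM and to 0.0849, 0.0 and 124 CPM, respectively. Non-stroked Rag2-/- mice had 1, 1 and 0 counts of Cd3e and 0 counts each of Igha, and non-stroked WT mice had 2, 1, 1 and 4 counts of Cd3e and 1, 0, 1 and 2 of Igha. Between non-stroked strains 1 gene was again called (0.00587%), B230118H07Rik, with a log2 fold change of -8.14, and 2.05% of genes had an unadjusted p below 0.05. After stroke, 8 of the 14 tested T cell receptor genes rose in WT mice relative to non-stroked WT mice and 0 in Rag2-/- mice, where 6.76% and 4.22% of all genes were called higher. The plasma cell list had 6 and 0 of 12. These comparisons share their stroked samples with the direct one, and the list members passed the same filter, so these counts are no tests. The difference between the 2 stroke responses was tested as such and called 0 genes, with a smallest adjusted p of 0.950 by edgeR, 713 genes (4.19%) at unadjusted p below 0.05, and 0 genes by DESeq2 with 828 at that unadjusted threshold.

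Among adaptors and factors of T cells, those with a p below 0.05 on the lower side included Sh2d2a, Ikzf3 and Tbx21. Sh2d2a, an adaptor in activated T cells, had 1, 5 and 3 counts in Rag2-/- mice and 10, 8, 10 and 13 in WT mice, without overlap (log2 fold change -1.84, SE 0.639, adjusted p = 0.707 by edgeR). Ikzf3, the lymphocyte factor Aiolos, had 9, 4 and 3 counts against 27, 14, 11 and 27 (-1.93, SE 0.726), and its log2 fold change was -2.04 without the 3 libraries and -1.02 with the olfactory bulb level as a covariate. Tbx21, the factor T-bet of effector lymphocytes, had 0.0861, 0.139 and 0.245 CPM against 2.88, 0.611, 0.304 and 5.77 CPM. Its highest levels were in WT mice 4 and 1, the mice with the highest olfactory bulb level, and mitral and tufted cells of the olfactory bulb express Tbx21 too. Its log2 fold change was -3.93 (SE 1.16) with all mice, -1.29 without the 3 libraries and -1.18 with the olfactory bulb level as a covariate. Tbx21 is itself a member of the olfactory bulb list, so this covariate holds its own reads and the last value is no test of their origin.

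Eomes, a factor of NK and memory T cells that the olfactory bulb also expresses, had its highest levels in the same mice. It had 0.889, 0.776 and 0.153 CPM in Rag2-/- mice and 6.72, 1.67, 0.826 and 14.6 CPM in WT mice. Its log2 fold change of -3.29 (SE 1.23) became 0.02 with the olfactory bulb level as a covariate. Eomes too is a member of the olfactory bulb list, so part of this change was built in, and the origin of its reads was not tested. Eomes was the only 1 of 9 tested NK cell and cytotoxic granule genes with an unadjusted p below 0.05, and the median of these 9 was -0.52. Ncr1, an NK cell receptor, had 1 or 2 counts in each of the 7 mice. In the list of T cell signalling genes and factors, 4 of 18 were lower and 1 was higher at that threshold, against 4.08% and 2.94% of all genes, with a median of -0.10. The fourth lower gene was Lat, an adaptor of the T cell receptor (log2 fold change -0.68), and the higher one was Lef1, a Wnt effector (log2 fold change 0.52, SE 0.224).

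B cell genes other than the antibody chains did not follow the antibody chains. Of 14 tested, 0 were lower and 1 was higher at unadjusted p below 0.05, and the median log2 fold change was -0.07. The higher gene was Cd79a, a signalling chain of the B cell receptor, with 14, 9 and 27 counts in Rag2-/- mice and 7, 10, 0 and 10 in WT mice, whose groups overlapped (log2 fold change 1.28, SE 0.571, adjusted p = 0.707 by edgeR). Ms4a1, which encodes the B cell surface protein CD20, had 0 counts in each Rag2-/- mouse and 1, 0, 0 and 4 counts in WT mice.

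Chemokines that recruit T cells and their receptors were lower in 3 of 12 tested members at unadjusted p below 0.05, against 4.08% of all genes. Cxcr6, a receptor of tissue-resident T cells, had 0, 0 and 3 counts in Rag2-/- mice and 11, 8, 8 and 4 in WT mice. The groups did not overlap (log2 fold change -2.88, SE 1.0, adjusted p = 0.707 by edgeR). Ccl5, a chemokine that T cells, NK cells and microglia secrete, had 0.746, 0.360 and 0.521 CPM against 2.37, 0.945, 0.826 and 1.34 CPM (-1.35, SE 0.565). Cxcl9, which interferon gamma induces and which attracts T cells through Cxcr3, had 0.0287, 0.388 and 0.460 CPM against 1.94, 1.44, 0.652 and 0.489 CPM (-1.97, SE 0.873). Cxcl10, a ligand of the same receptor, overlapped between the groups (log2 fold change -0.35, 95% interval -1.53 to 0.83). The list median was -0.41. Without the 3 libraries the log2 fold changes of Ccl5 and Cxcl9 were -1.01 and -1.33, with unadjusted p-values of 0.19 and 0.215 by edgeR, and with the olfactory bulb level as a covariate they were -0.43 and -1.22.

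Ly6c2 had the smallest p among genes of myeloid cells. This gene encodes a form of Ly6C, the surface protein of inflammatory monocytes that memory CD8 T cells also carry. It had 0, 2 and 0 counts in Rag2-/- mice and 12, 11, 4 and 9 in WT mice, or 0.303, 0.306, 0.174 and 0.275 CPM. The WT mice of both cohorts lay above the Rag2-/- mice (log2 fold change -3.57, SE 0.731, adjusted p = 0.276 by edgeR). Its close copy Ly6c1, which brain endothelium expresses, had 22.1, 22.7 and 25 CPM against 18.5, 27.9, 28.8 and 26.1 CPM and overlapped between the groups (-0.12, 95% interval -0.39 to 0.15). Reads of these copies may be exchanged.

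Few other genes of its list had a low p. Of 21 tested genes of monocytes, border macrophages and dendritic cells, only Ly6c2 was lower at unadjusted p below 0.05, and Chil3 and Flt3 were higher. Over all genes 4.08% were lower and 2.94% higher at that threshold. The list median was -0.14. Plac8, another gene of monocytes, had 17 counts in Rag2-/- and 43 in WT mice in all (ratio of pooled levels 0.501, counting interval 0.268 to 0.897, log2 fold change -1.03, SE 0.648). Chil3, a chitinase-like protein of myeloid cells, had 1.89 CPM in Rag2-/- mouse 1 and at most 0.458 CPM in any other stroked mouse.

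Genes that interferon gamma induces lay mostly below 0 and none passed. Of 29 tested, 23 had a negative log2 fold change, 2 were lower at unadjusted p below 0.05 and the median was -0.15. These were Ifi47 (log2 fold change -0.90, SE 0.424) and Igtp (-0.62, SE 0.294), GTPases that act against intracellular pathogens, and 4.08% of all genes were lower at that threshold. With the cohort as a covariate Ifi47 was at -0.29 and Igtp at -0.48, and with the olfactory bulb level as a covariate they were at -0.29 and -0.10. Igtp had 4.45, 3.58 and 4.75 CPM in Rag2-/- mice and 8.46, 4.56, 6.04 and 7.12 CPM in WT mice, so that WT mouse 2 lay inside the Rag2-/- range. Ifng itself had 2 counts in WT mouse 3 and 0 in the other stroked mice. A lean to the lower side was not particular to this list, as 21 of 24 Fc receptor and complement genes and 13 of 14 MHC class I genes were below 0. Genes induced by type I interferon were evenly split, 13 above and 13 below 0, with a median of -0.01 and 0 of 26 at an unadjusted p below 0.05 (edgeR).

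None of the antigen presentation genes was called. Cd74, the invariant chain of MHC class II, had 73.7, 19.9 and 24.0 CPM in Rag2-/- mice and 66.5, 25.6, 39.4 and 54.4 CPM in WT mice, where Rag2-/- mouse 1 was the highest of all. Its log2 fold change of -0.25 had a 95% interval of -1.47 to 0.98. None of 13 tested class II genes had an unadjusted p below 0.05 (median -0.18). Of 14 class I genes only H2-M3, which presents bacterial peptides, was lower at that threshold, with 2.47, 2.44 and 2.76 CPM against 3.05, 2.95, 5.30 and 5.13 CPM (-0.68, SE 0.268). Within Imm2 its log2 fold change was -0.22.

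**Figure D5:**
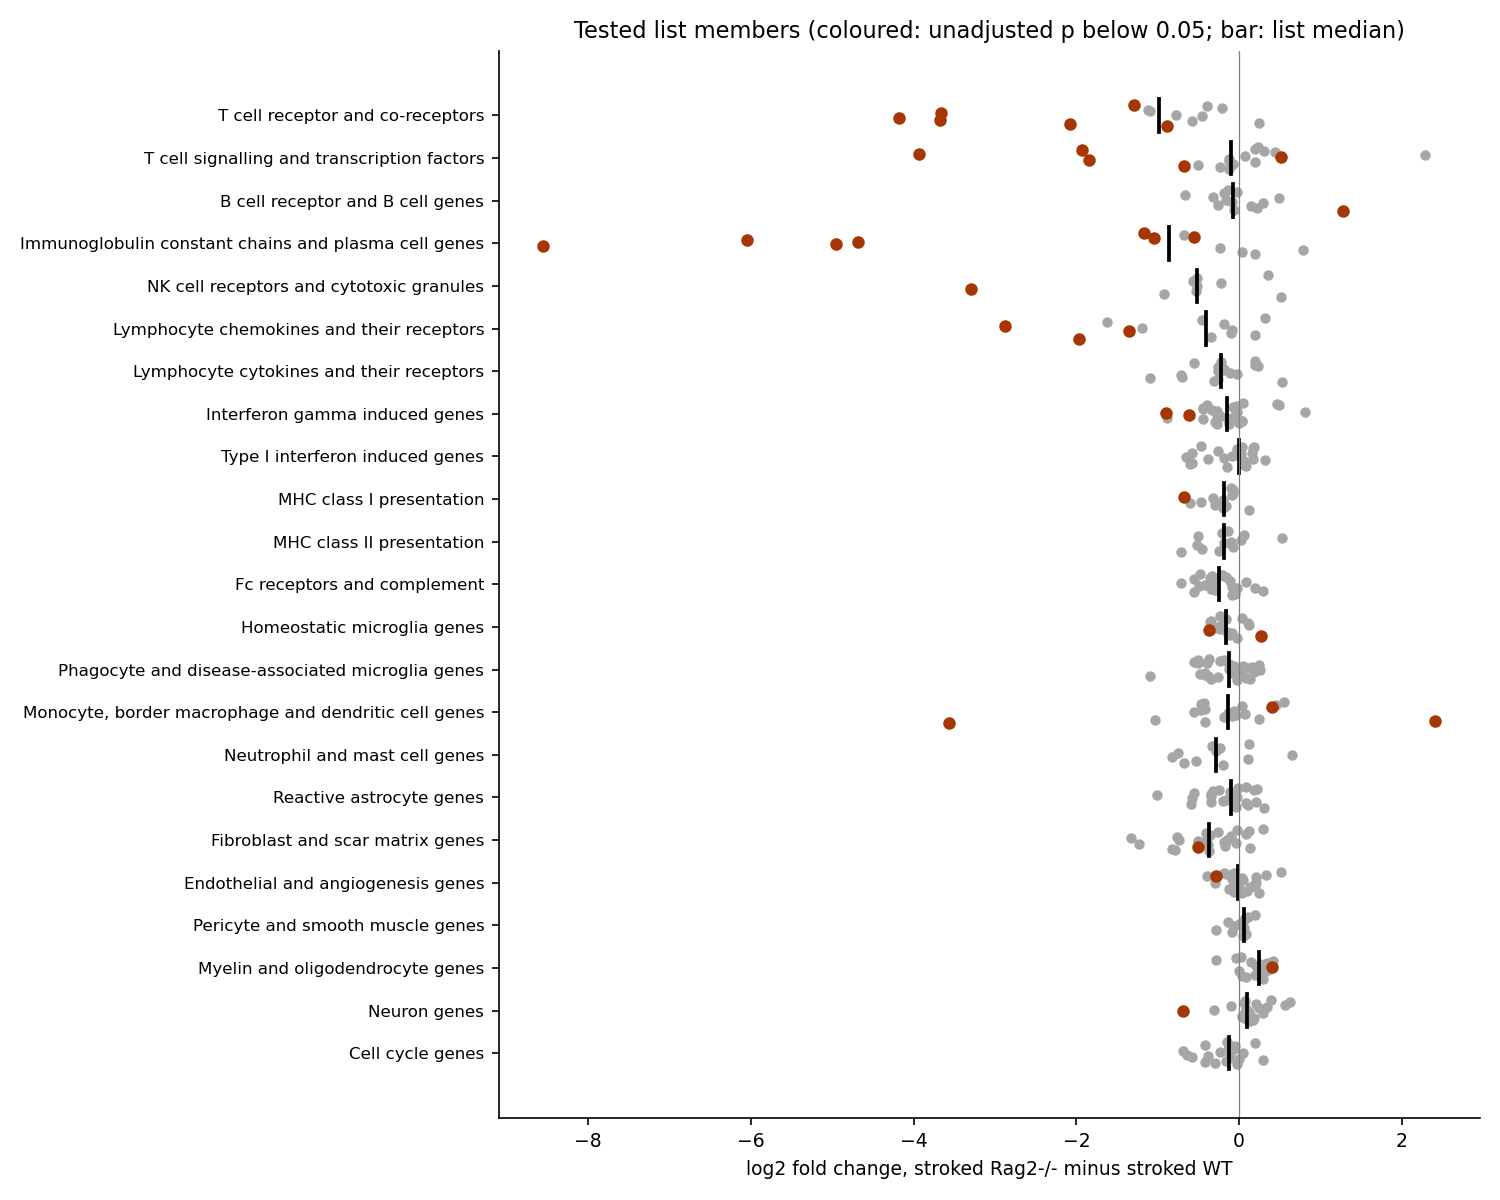
Each point is a tested member of 1 of 23 gene lists, placed by its log2 fold change of stroked Rag2-/- minus stroked WT mice, coloured where the unadjusted p was below 0.05, with a black bar at the list median. The medians of the T cell receptor list and the immunoglobulin and plasma cell list are -0.98 and -0.86, and the glial, scar matrix, vascular and neuronal lists lie between -0.37 and 0.24.

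The markers of microglia and astrocytes overlapped between the groups. Aif1, which encodes the microglial protein Iba1, had 9.24, 6.21 and 7.81 CPM in Rag2-/- and 7.57, 6.89, 7.95 and 9.59 CPM in WT mice (log2 fold change -0.05, 95% interval -0.60 to 0.51). Gfap, of reactive astrocytes, had 1690, 1120 and 800 CPM against 903, 765, 1070 and 1140 CPM (0.31, 95% interval -0.38 to 1.01). None of 29 phagocyte and disease-associated microglia genes, 24 Fc receptor and complement genes and 24 reactive astrocyte genes had an unadjusted p below 0.05 by edgeR, where 7.02% of all genes did. C1qa, a subunit of the first complement component, differed by 0.20 (95% interval -0.38 to 0.78) and Apoe by 0.14 (-0.38 to 0.65).

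A pair of homeostatic microglia genes had opposite signs. Siglech, a sialic acid receptor, had 13, 11.1 and 12.9 CPM in Rag2-/- mice and 14.3, 16.2, 17.2 and 15.9 CPM in WT mice (log2 fold change -0.37, SE 0.139). P2ry13, a purine receptor, had 15.1, 13.7 and 17.9 CPM against 13.4, 13.3, 12 and 12.8 CPM (0.27, SE 0.128). Neither passed (adjusted p = 0.707 by edgeR for each), and the median of the 16 genes was -0.15.

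Vessel genes did not separate the groups. Pecam1, which encodes the endothelial protein CD31, had 21.4, 16.5 and 15.8 CPM in Rag2-/- mice and 12.7, 15.3, 23.3 and 19.2 CPM in WT mice (log2 fold change 0.03, 95% interval -0.36 to 0.41). Within Imm2, where the WT mice were the lower ones, it was 0.37. Anpep, the pericyte protein CD13, differed by -0.09 (95% interval -0.95 to 0.77). Of 30 endothelial and angiogenesis genes 1 was lower at unadjusted p below 0.05, the fatty acid transporter Mfsd2a at the blood-brain barrier (-0.28, SE 0.132), and of 12 pericyte and smooth muscle genes 0 were lower or higher at that threshold by edgeR.

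Of 24 fibroblast and scar matrix genes, 20 had a negative log2 fold change, with a median of -0.37. Only Col6a1, a collagen VI chain, had an unadjusted p below 0.05, with 81.8, 120 and 106 CPM against 139, 128, 143 and 174 CPM (log2 fold change -0.51, SE 0.245). It was -0.37 within Imm2 and -0.26 without the 3 libraries.

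Neuronal genes had small log2 fold changes with intervals that include 0 for the stained proteins. Rbfox3, which encodes NeuN, had a log2 fold change of 0.14 (95% interval -0.22 to 0.51), and the neurofilament genes Nefh and Nefl 0.17 (-0.23 to 0.56) and 0.08 (-0.16 to 0.31). Gad1, the GABA-synthesizing enzyme of interneurons, was the only 1 of 22 neuron genes at unadjusted p below 0.05, with 206, 216 and 222 CPM in Rag2-/- mice and 287, 235, 317 and 544 CPM in WT mice (-0.69, SE 0.208, adjusted p = 0.707 by edgeR). WT mouse 4, the mouse with the highest olfactory bulb level, was highest, and with that level as a covariate the log2 fold change was -0.21. Of 19 myelin and oligodendrocyte genes 16 were above 0 (median 0.24), and Sox10 was the only 1 at unadjusted p below 0.05 (0.40, SE 0.167).

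Among other genes with the smallest p on the lower side were Chtf8, Rabif and Chrna10. Chtf8, a subunit of a clamp loader in DNA replication, had 58.3, 54.6 and 52.4 CPM in Rag2-/- mice and 64.4, 64.4, 64.8 and 69.0 CPM in WT mice, a small but separate difference (log2 fold change -0.25, SE 0.0642). It is listed under 2 overlapping gene models, and how their shared reads were assigned is not given in the sources used here. Rabif, a factor that acts on Rab GTPases, had 19.5, 19.0 and 20.1 CPM against 23.6, 21.3, 26.2 and 27.8 CPM (-0.34, SE 0.0926). Chrna10, a nicotinic receptor subunit, had 1, 0 and 1 counts against 26, 4, 5 and 65 counts, highest in WT mice 4 and 1. Its log2 fold change of -5.02 was -3.12 without the 3 libraries and -2.37 with the olfactory bulb level as a covariate. The adjusted p was 0.707 by edgeR for each of these genes.

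On the higher side, Gm38340 had the smallest p. It had 0.861, 1.91 and 2.08 CPM in Rag2-/- mice and 0.757, 0.611, 0.261 and 0.183 CPM in WT mice (log2 fold change 1.79, SE 0.388, adjusted p = 0.345 by edgeR). Gm38340, Gm43290, Gm48958, Gm37931, Gm43571 and Gm43088, 6 of the 12 genes with the smallest p on this side, belong to the annotation class TEC, transcripts from unspliced clones that await experimental support.

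The class as a whole was then counted, after these values were seen. Of 1050 TEC genes tested, 158 were higher and 7 lower at unadjusted p below 0.05, with a median log2 fold change of 0.45, against 2.94% higher and 4.08% lower over all genes. Their summed level was 1410, 1570 and 1610 CPM in stroked Rag2-/- mice and 1400, 1390, 1250 and 1130 CPM in stroked WT mice, so that the WT mice of the TF cohort were lowest and Rag2-/- mouse 1 was close to WT mice 1 and 2. With the cohort as a covariate 47 were higher and 2 lower with a median of 0.23. Within Imm2, 43 were higher and 3 lower with the same median, and without WT mouse 4 these numbers were 69, 5 and 0.31. Non-stroked mice of both strains had 1420 to 1620 CPM.

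Of the annotated proteins on the higher side, Sox9, an astrocyte transcription factor, had 48.3, 45.8 and 44.5 CPM in Rag2-/- mice and 32.7, 40.2, 24.7 and 30.5 CPM in WT mice. The groups did not overlap (log2 fold change 0.52, SE 0.132, adjusted p = 0.707 by edgeR). Within Imm2 it was 0.36 and in the fits that left out 1 stroked mouse 0.42 to 0.65. Rnf43, a ligase that removes Wnt receptors from the membrane, had 4.56, 5.82 and 5.73 CPM against 3.71, 3.89, 3.56 and 2.44 CPM (0.66, SE 0.175).

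Il33, an alarmin that glia release on injury, had 104, 68.3 and 70.5 CPM in Rag2-/- mice and 60.6, 61.8, 62.7 and 54.8 CPM in WT mice. Every Rag2-/- mouse was above every WT mouse, and Rag2-/- mouse 1, the mouse with choroid plexus RNA, was highest (log2 fold change 0.44, SE 0.123). Without that mouse it was 0.22 with an unadjusted p of 0.0637 by edgeR. Pcolce2, an enhancer of procollagen processing, had 14.1, 7.73 and 7.57 CPM against 6.01, 5.89, 6.48 and 4.80 CPM (0.76, SE 0.219), and without the same mouse 0.41 with an unadjusted p of 0.0685 by edgeR.

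Gpr55, a receptor for lysophosphatidylinositol, and Spata3 are neighbours on chromosome 1 (chr1:85938318-85961007 and chr1:86016816-86029958). Gpr55 had 0.459, 0.637 and 0.674 CPM in Rag2-/- mice and 0.252, 0.167, 0.174 and 0.183 CPM in WT mice (log2 fold change 1.57, SE 0.452). Spata3 had 1.06, 1.05 and 0.981 CPM against 0.606, 0.528, 0.391 and 0.458 CPM (1.04, SE 0.301). Neither passed (adjusted p = 0.707 by edgeR), and between the non-stroked strains they differed by 0.37 and 0.39, with the same sign and without passing.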

How the data were processed

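The deposited values are raw read counts per Ensembl gene (25746 genes, 1 file per sample). Per the methods of the study, the authors selected polyA RNA, prepared libraries with a stranded kit and left alignment and counting to a core facility. The aligner and the genome build are not given in the sources used here. Names and positions are from GENCODE M21 (GRCm38), which holds 25712 of the IDs.

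All 29 samples entered 1 quasi-likelihood fit with 8 groups (edgeR 4.0.16, R 4.3.3), after filterByExpr and TMM scaling, and p-values were adjusted by Benjamini-Hochberg over 17031 genes. The SE is the absolute log2 fold change divided by the square root of F. CPM uses the TMM-scaled library size. Alternatives included DESeq2 1.42.0. The fit was tested on simulated counts, in which only genes above a mean of 1 CPM were changed and no cohort, sex or tissue difference was present. That test does not cover the genes of low counts described here. Genes were named by the smallest p per direction and per list, by the stained proteins and by the Rag locus, and those named beyond this rule were chosen after their values were seen. The gene lists and the comparison were chosen with earlier results of these data known.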

Additional observations from a re-analysis of the deposited data

Results flagged for a closer look

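In 8 of 108 groups of 4 WT mice examined (7.41%), 1 mouse stood apart from the other 3 by Dixon's criterion for 4 values (the gap to its nearest neighbour over the whole range), where chance alone gives about 1 in 20. Among stroked WT mice, Igkc was high in mouse 2 with 4.39 CPM (others 0.959 to 1.25 CPM), Chtf8 was high in mouse 4 with 69.0 CPM (others 64.4 to 64.8 CPM) and Irf4 was high in mouse 4 with 0.55 CPM (others 0.391 to 0.417 CPM). Among non-stroked WT mice, Cd8a with 0.055 CPM in mouse 5, and Cd3g with 0.0265 CPM and Sh2d2a with 0.053 CPM in mouse 4, were high at 1 or 2 counts. Gm43290 was low in mouse 1 with 0.199 CPM (others 0.33 to 0.354 CPM) and Col6a1 was low in mouse 4 with 48.4 CPM (others 65.8 to 67.6 CPM).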

How the results depend on the processing

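The single call of B230118H07Rik was made under all 19 alternatives to the direct comparison, and leaving out each of the 7 stroked mice gave 1 to 1 called genes. DESeq2 called 2 genes, Igha in addition (adjusted p = 0.000351), and 2 between the non-stroked strains. Of 858 gene values under 18 alternatives, 857 kept their side of the threshold. Apart from B230118H07Rik these genes did not pass in the main fit, so this count says little about their estimates. The sign was kept throughout for 40 of 50 genes. The number of genes at unadjusted p below 0.05, 1196, was 765 in a fit of the 7 samples, 424 with the cohort as a covariate, 415 within Imm2, 752 without the 3 libraries, 541 with the olfactory bulb level as a covariate (both chosen after the data were seen) and 385 to 2163 without 1 mouse. Its share of higher genes was 501 of 1196, and 284 of 424 with the cohort. Of the T cell receptor list, 11 of 20 members were lower at that threshold without a filter, where 789 of all 22092 genes were lower. At a mean of at least 1 CPM, where 490 of all 14376 genes were lower, it was 0 of 3, and the CD3 genes are no longer tested. Of the plasma cell list these numbers were 7 of 17 and 2 of 5. Without receptor segments they were 3 of 4, where 689 of all 17022 genes were lower.

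No paired analysis was possible because the labels give the stroked mice no replicate numbers, and those used here follow accession order and only name the mice. For the non-stroked strains, samples 1 and 4 with the replicate number as a replicate block gave 7 called genes against 1 without it. Same-numbered samples deviated together with correlations of 0.08 and 0.08, and samples of unlike number with -0.12 to 0.05. With so few samples these values cannot decide whether the numbers pair them.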
